A study of Mus musculus with 12 samples.

Results

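The insulin-like growth factor (IGF) axis was followed through 10 genes in mouse hearts: the ligands Igf1 and Igf2, the receptors Igf1r and Igf2r, and the binding proteins Igfbp2 to Igfbp7. The genes were taken by family name from the 47729 genes of the count table, and the family was chosen by results of these same libraries, in which Igfbp2 had been noted for its higher CPM under angiotensin II (Ang II) than in control. All 10 were among the 15336 genes with enough reads to be tested. Hearts came from male C57BL/6 mice, 8 weeks old at the start, which carried subcutaneous pumps for 28 days. The 3 libraries labelled control carry "Ang II control" in their titles and were taken to be the saline-infused mice that the study design names. Every comparison with control rests on that reading. A second set of 3 came from mice infused with Ang II, the vasoconstrictor hormone of the renin system. A further 3 libraries came from Ang II mice given oral EHP-101 at 20 mg/kg over the last 2 weeks, and 3 from Ang II mice given losartan at 0.6 g/L in the drinking water over that time. All mice outside the control group thus received Ang II. Losartan is an AT1 receptor antagonist, and EHP-101 is an oral agent directed at PPARγ and CB2.

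IGF1 and IGF2 are small secreted proteins that drive growth and survival through the receptor tyrosine kinase IGF1R, while IGF2R captures IGF2 and carries it to lysosomes. The binding proteins hold the ligands outside the cell and can either block them or deliver them to the receptor, and proteases that cut a binding protein release its ligand. In the heart, fibroblasts and macrophages are known local sources of IGF1, and cardiomyocytes respond to it.

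The libraries held 22155418 to 24040516 counts each. Levels are CPM, counts divided by the TMM-scaled library total and put on the usual common scale, with SD over n = 3 libraries, and differences are log2 fold changes ± SE from edgeR's quasi-likelihood fit. A gene is said to have passed when its p-value, adjusted by Benjamini-Hochberg over all 15336 genes, was under 0.05. The labels do not say whether replicates were separate animals, so p-values set a difference only against the scatter among these samples. That scatter may be technical. Cardiomyocyte markers were abundant in every library, with 8 genes summing to 66990 to 81780 CPM in control and, below all of these, 55480 to 66620 CPM under Ang II. Control replicate 2 stood apart from the other control libraries, and 7 of the 10 IGF genes had their lowest value of all 12 libraries in it.

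A pair of the binding protein genes are neighbours in the genome, which is why their promoters are shown first. In GRCm38 with GENCODE M21, Igfbp2 (ENSMUSG00000039323) spans chromosome 1 from 72824503 to 72852474 on the plus strand, and Igfbp5 (ENSMUSG00000026185) spans 72857932 to 72874884 on the minus strand. The sides that face each other, across 5457 bases, are those where transcription ends, so the promoters lie at the outer sides of the pair and are not adjacent. Igfbp4 (ENSMUSG00000017493) lies on chromosome 11 from 99041244 to 99054392 and is shown beside them because it had the smallest p of the family under losartan. The sequences below are the RefSeq windows before the annotated start (build GRCm38.p6), 250 bases long, or 231 where annotated exon bases were removed. They are chr1:72824230-72824479 on the plus strand for Igfbp2, chr1:72874885-72875115 on the minus strand for Igfbp5, and chr11:99040994-99041243 on the plus strand for Igfbp4. Capitals mark matches, on either strand, to the GC box (GGGCGG), the E-box (CACGTG), the AP-1 motif (TGANTCA) or the TATA motif (TATAAA).
Igfbp2: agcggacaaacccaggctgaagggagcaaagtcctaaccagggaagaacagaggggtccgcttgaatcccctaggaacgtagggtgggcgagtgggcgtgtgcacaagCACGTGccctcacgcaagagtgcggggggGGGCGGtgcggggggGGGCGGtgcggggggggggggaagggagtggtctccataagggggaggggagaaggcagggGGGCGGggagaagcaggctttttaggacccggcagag
Igfbp5: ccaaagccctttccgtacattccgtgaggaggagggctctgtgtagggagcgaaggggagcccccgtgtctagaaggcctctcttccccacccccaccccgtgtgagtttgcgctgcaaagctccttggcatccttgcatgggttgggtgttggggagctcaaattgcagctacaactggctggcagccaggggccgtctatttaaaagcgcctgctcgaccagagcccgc
Igfbp4: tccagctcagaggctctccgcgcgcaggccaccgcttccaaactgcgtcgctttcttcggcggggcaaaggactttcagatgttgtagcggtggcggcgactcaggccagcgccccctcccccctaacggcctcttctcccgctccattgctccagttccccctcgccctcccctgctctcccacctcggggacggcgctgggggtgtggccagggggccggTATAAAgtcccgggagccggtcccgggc
The Igfbp2 window held 3 GC boxes and 1 E-box. Of 32851 RefSeq windows of that length, 32.7% held at least 1 GC box and 6.02% at least 1 E-box. The Igfbp4 window held 1 TATA motif, and 12.4% of these windows held at least 1. Among the 231-base windows, 30.0% held a GC box, 5.37% an E-box, 6.36% an AP-1 motif and 11.8% a TATA motif, and the Igfbp5 window held none of these letters. An AP-1 motif was in 6.75% of the 250-base windows and in neither of the windows shown at that length. The matches are letters in a window and were not tested as binding sites.

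Levels of different genes were compared per kilobase of exon. Igfbp7, a secreted protein of vessels and matrix that binds IGFs weakly, was the most abundant member at 157 CPM per kb over all 12 libraries. It was followed by Igfbp5 at 40.4, Igf2r at 27.9, Igfbp4 at 24.8, Igfbp6 at 17.5 and Igfbp3 at 10.9 CPM per kb. The ligands were lower, with Igf2 at 9.03, a level limited by exons shared with other genes, and Igf1 at 3.79 CPM per kb, and the signalling receptor Igf1r had 2.69. Igfbp2 was the least abundant at 0.806 CPM per kb, so the 2 neighbours on chromosome 1 sat near opposite ends of the range.

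**Figure D1:**
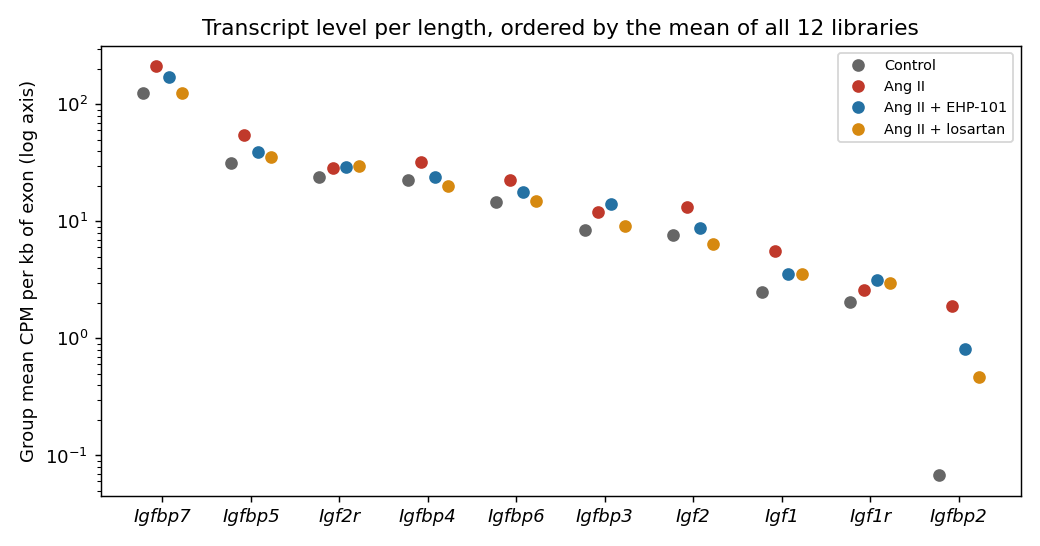
Group mean level in CPM per kilobase of exon on a log axis for the 10 genes, ordered by their mean over all 12 libraries, with 1 point per group. Igfbp7 stands highest in every group and Igfbp2 lowest, with its control point at 0.0678 CPM per kb far under its other 3.

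Igfbp2, a binding protein that also attaches to integrins, was scarcely detected in the control hearts. The control libraries held 5, 0 and 4 reads of it, the Ang II libraries 67, 31 and 175, the EHP-101 libraries 48, 31 and 24, and the losartan libraries 22, 32 and 5. On the CPM scale these were 0.209, 0 and 0.167 in control, 2.54, 1.29 and 6.56 under Ang II, 2.03, 1.45 and 1.05 with EHP-101, and 1.02, 1.34 and 0.211 with losartan. Every library that received Ang II lay above every control library, though losartan replicate 3 did so at 0.211 against 0.209 CPM, and Ang II replicate 3 stood far above the other 11.

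The Ang II difference is what singled out Igfbp2, so it is given as a description with no test. Its fitted log2 fold change from control was 4.65 ± 0.84 under Ang II, 3.45 ± 0.88 with EHP-101 and 2.63 ± 0.92 with losartan, all resting on 9 reads in the control group. Without Ang II replicate 3 the first value was 3.80, and without control replicate 2 it was 4.17. Against Ang II alone the differences were -1.20 ± 0.61 with EHP-101 and -2.01 ± 0.65 with losartan. Both shrank without Ang II replicate 3, to -0.35 and -1.16, and the ranges of the groups overlapped in both cases. The comparison of EHP-101 with losartan sets none of the libraries that singled the gene out against each other, although its spread was estimated over all 12. There the log2 fold change of Igfbp2 was 0.82 ± 0.67 and did not pass (adjusted p = 0.953, edgeR).

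Of all tested genes outside the family with at least 1 CPM and a proper name, 12460 in number, those most like Igfbp2 over the 12 libraries were Sulf1, Dsel, Tnc, Cnn1 and Cysltr1. Likeness was measured as Pearson's r of log2 CPM, which was 0.97, 0.97, 0.96, 0.96 and 0.95. Sulf1 edits heparan sulphate, Tnc is the matricellular protein tenascin-C and Cnn1 is a smooth muscle calponin. Tnc had 3.1 CPM in control, 25.2 under Ang II, 13.7 with EHP-101 and 8.23 with losartan, the same order of groups as Igfbp2. The rest of these genes had that order too, and all were picked for their likeness in these same libraries. Within the family the gene most like Igfbp2 was Igf1, with r = 0.90. These values share the same libraries and scaling and describe likeness only.

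Igf1 was the member with the smallest p under Ang II. It had 28.3, 17.8 and 27.6 CPM in the control libraries, 60.5, 41.5 and 64.2 under Ang II, 32.8, 32.8 and 39.5 with EHP-101, and 37.2, 37.3 and 30.7 with losartan. All 3 Ang II libraries lay above the other 9, and all libraries of both treated groups lay between control and Ang II. Under Ang II, Igf1 rose 2.25-fold. The mean was 24.6 ± 5.86 CPM in control and 55.4 ± 12.1 with Ang II, a log2 difference of 1.17 ± 0.20 (adjusted p = 0.0239, edgeR). The call did not survive the loss of any control library (adjusted p = 0.0542, 0.0617 and 0.0632), of Ang II replicate 1 (0.124) or of Ang II replicate 3 (0.145). The log2 fold change stayed between 0.99 and 1.34 in those fits and in the fits without any other single library.

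With either treatment the Igf1 mean was close to 35.1 CPM. Its log2 fold change from Ang II alone was -0.66 ± 0.20 in both cases and passed in neither (adjusted p = 0.409 for EHP-101 and 0.349 for losartan, edgeR). Against control it was 0.51 ± 0.20 in both cases (adjusted p = 0.236 and 0.456), with no overlap of ranges. The treated groups themselves overlapped, with means of 35.06 and 35.1 CPM and an adjusted p of 1. By the same measure and filter as for Igfbp2, the genes most like Igf1 were Mmp14 (r = 0.98), a membrane-bound collagenase, then Hps1 (0.96), the fibrillar collagen gene Col3a1 (0.96), Kdelc2 (0.95) and the elastin gene Eln (0.95).

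**Figure D2:**
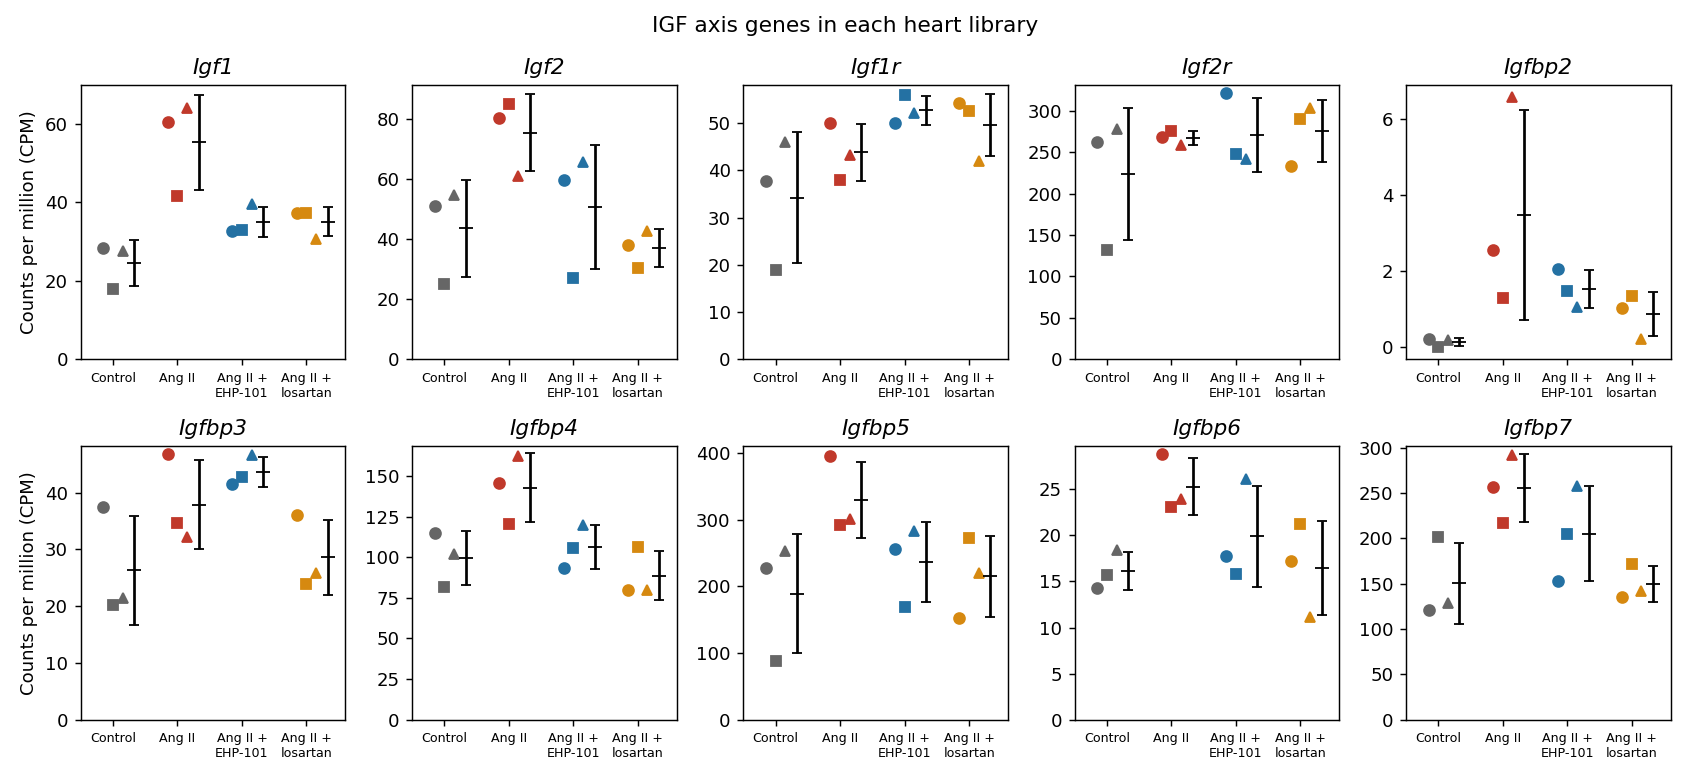
CPM of each of the 10 genes in all 12 libraries, 1 panel per gene with its own axis from about 0. Circles, squares and triangles are replicates 1, 2 and 3, and black bars are the group mean ± SD. Igf1 shows the 3 Ang II libraries above all others, whereas the ranges of all 4 groups overlap for Igf2r.

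The second ligand, Igf2, is an imprinted gene of fetal growth that is kept at lower levels after birth. It had 51.0, 25.0 and 54.6 CPM in control, 80.3, 85.0 and 60.9 under Ang II, 59.6, 27.1 and 65.5 with EHP-101, and 37.9, 30.3 and 42.6 with losartan. The Ang II group lay above the control and losartan groups without overlap, and EHP-101 replicate 2 lay with the lowest libraries. Igf2 did not pass in any comparison. The log2 fold change was 0.79 ± 0.32 for Ang II against control (adjusted p = 0.25, and 0.51 ± 0.32 without control replicate 2). It was -1.03 ± 0.32 for losartan against Ang II (adjusted p = 0.367) and -0.57 ± 0.32 for EHP-101 against Ang II (adjusted p = 0.817).

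Igf2 (ENSMUSG00000048583, chromosome 7 from 142650766 to 142666816) shares 3694 of its 5723 exon bases with Igf2os on the other strand or with a predicted gene on its own. The library kit keeps no strand, and how reads in shared exons were counted is not given in the sources used here, so the level of Igf2 and its place per kilobase are uncertain over most of its exon length. Its neighbour H19, an imprinted noncoding RNA expressed from the other parental copy, lies 72622 bases away. H19 had 38.2, 19.4 and 46.9 CPM in control, 74.0, 72.9 and 56.9 under Ang II, 66.0, 15.1 and 58.8 with EHP-101, and 23.3, 21.7 and 30.8 with losartan. The libraries low in Igf2 were also the libraries low in H19, control replicate 2 and EHP-101 replicate 2 included. H19 passed in no comparison, with a log2 fold change of 0.96 ± 0.43 for Ang II against control (adjusted p = 0.273) and -1.43 ± 0.44 for losartan against Ang II (adjusted p = 0.35, edgeR). The pairing of H19 with Igf2 was singled out after the values were seen.

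**Figure D3:**
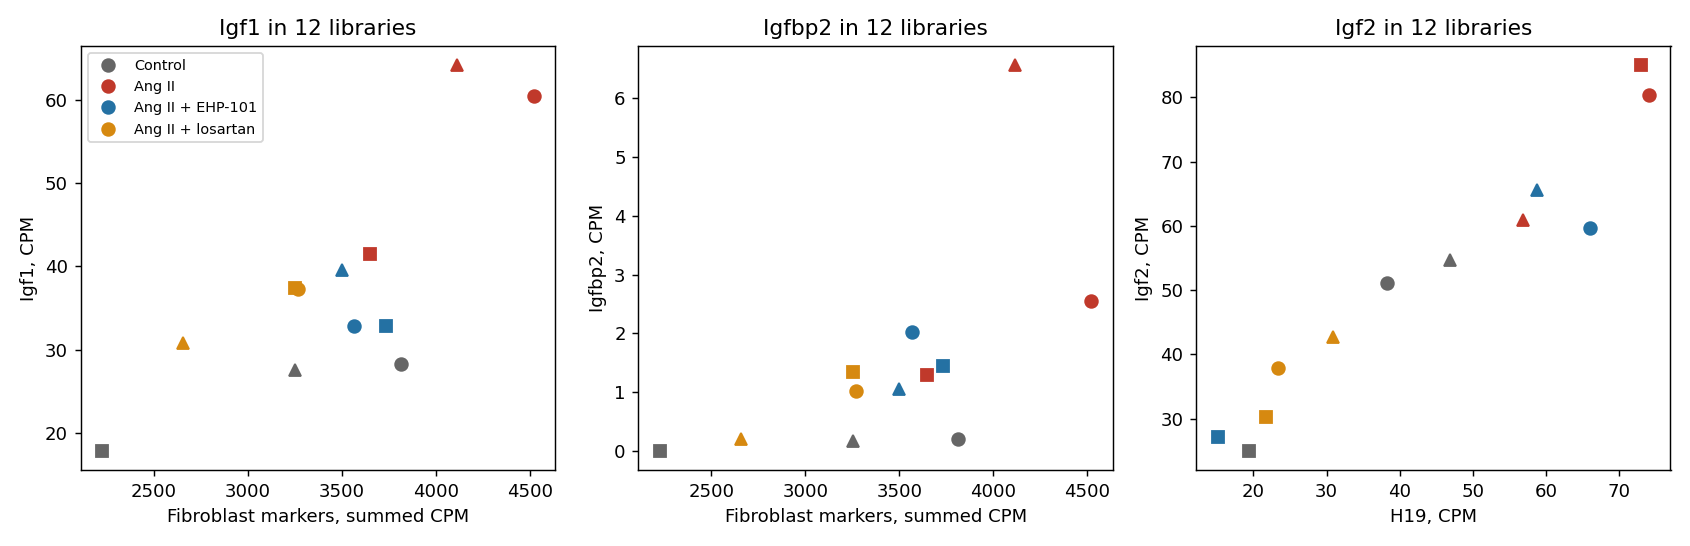
Each point is 1 of the 12 libraries, coloured by group, with circles, squares and triangles for replicates 1, 2 and 3. The left and middle panels set Igf1 and Igfbp2 against the summed CPM of 8 fibroblast markers, and the right panel sets Igf2 against H19, all on linear CPM axes. Most of the marker sum was Gsn and Dcn. Control replicate 2 is at the lower left of the first 2 panels, at 2227 CPM of fibroblast markers, and beside EHP-101 replicate 2 at the lower left of the third.

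The receptors differed less between groups. Igf1r, which carries the growth signal, had 37.8, 18.95 and 46.0 CPM in control, 50.1, 38.1 and 43.4 under Ang II, 50.0, 55.9 and 52.2 with EHP-101, and 54.3, 52.5 and 42.0 with losartan. The EHP-101 libraries lay above all control libraries, and every other pair of groups overlapped. The log2 fold change of Igf1r from control was 0.35 ± 0.24 under Ang II, 0.62 ± 0.24 with EHP-101 and 0.53 ± 0.24 with losartan (adjusted p = 0.449, 0.242 and 0.456). Without control replicate 2 they were 0.06 ± 0.14 under Ang II, 0.33 ± 0.14 with EHP-101 and 0.25 ± 0.14 with losartan. Igf2r, the scavenger of IGF2, had group means of 224 ± 79.9 in control, 267 ± 8.34 under Ang II, 270.4 ± 44.7 with EHP-101 and 275 ± 37.2 CPM with losartan. Apart from control replicate 2, at 132 CPM, its libraries lay between 233 and 322 CPM. Under Ang II it differed from control by 0.26 ± 0.23 on the log2 scale (adjusted p = 0.565), or by -0.01 without control replicate 2. With either treatment it differed from Ang II by 0.02 ± 0.23 and 0.04 ± 0.23, values whose sign turned when libraries were scaled by size alone (-0.13 and -0.07).

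Igfbp4, a binding protein that mostly restrains IGF action until it is cut, was also highest under Ang II. It had 115, 81.9 and 102 CPM in control, 146, 120.2 and 163 under Ang II, 93.4, 105 and 119.9 with EHP-101, and 79.7, 106 and 80.1 with losartan. The Ang II libraries lay above all the others, by a margin as small as 120.2 against 119.9 CPM. Its log2 fold change was 0.52 ± 0.17 for Ang II against control (adjusted p = 0.192), -0.43 ± 0.17 for EHP-101 against Ang II (adjusted p = 0.603) and -0.69 ± 0.17 for losartan against Ang II (adjusted p = 0.27, edgeR). DESeq2 called the last of these (adjusted p = 0.0289).

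Igfbp5, which binds matrix as well as IGFs, had the widest ratio between its lowest and highest library of the 9 members with reads in every library, 4.5. It had 227, 87.7 and 252 CPM in control, 395, 292 and 301 under Ang II, 256, 169.6 and 283 with EHP-101, and 152, 273 and 220.0 with losartan. The Ang II group lay above the other 3 without overlap, while those 3 overlapped one another. Igfbp5 did not pass for Ang II against control (0.80 ± 0.34, adjusted p = 0.261), EHP-101 against Ang II (-0.48 ± 0.34, adjusted p = 0.889) or losartan against Ang II (-0.62 ± 0.34, adjusted p = 0.672). Without control replicate 2 the Ang II difference was 0.46 ± 0.26.

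Igfbp7 had 121, 202 and 129 CPM in control, 257, 217 and 292 under Ang II, 153, 205 and 258 with EHP-101, and 136, 172 and 142 with losartan. Here control replicate 2 was the highest control library and not the lowest. The Ang II libraries lay above all control and losartan libraries, and the EHP-101 libraries spread across both levels. Its log2 fold change was 0.76 ± 0.23 for Ang II against control (adjusted p = 0.154, and 0.0857 without control replicate 2) and -0.77 ± 0.23 for losartan against Ang II (adjusted p = 0.349, edgeR). For the first comparison DESeq2 called Igfbp7 (adjusted p = 0.0475). It differed by -0.32 ± 0.22 between EHP-101 and Ang II (adjusted p = 0.892). Exons of Igfbp7 (ENSMUSG00000036256, chromosome 5 from 77349240 to 77408041) share 85 bases with Polr2b on the other strand, and its level is uncertain to that extent.

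Igfbp6, which prefers IGF2 to IGF1, had 14.3, 15.7 and 18.4 CPM in control, 28.8, 23.1 and 23.9 under Ang II, 17.7, 15.8 and 26.1 with EHP-101, and 17.2, 21.2 and 11.1 with losartan. The Ang II libraries lay above all control and losartan libraries but not above EHP-101 replicate 3. The log2 fold change was 0.65 ± 0.23 for Ang II against control (adjusted p = 0.214) and -0.62 ± 0.23 for losartan against Ang II (adjusted p = 0.465, edgeR).

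Igfbp3, the main carrier of IGFs in blood, had an order of its own. It had 37.4, 20.2 and 21.4 CPM in control, 46.8, 34.7 and 32.2 under Ang II, 41.5, 42.8 and 46.6 with EHP-101, and 36.1, 23.8 and 25.9 with losartan. The EHP-101 group had the highest mean and lay above all control and losartan libraries. The log2 fold change between EHP-101 and losartan was 0.61 ± 0.23, which did not pass over all genes (unadjusted p = 0.0221, adjusted p = 0.744, edgeR). Between EHP-101 and Ang II it was 0.20 ± 0.23 (adjusted p = 0.953), and between EHP-101 and control 0.73 ± 0.23 (adjusted p = 0.179).

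**Figure D4:**
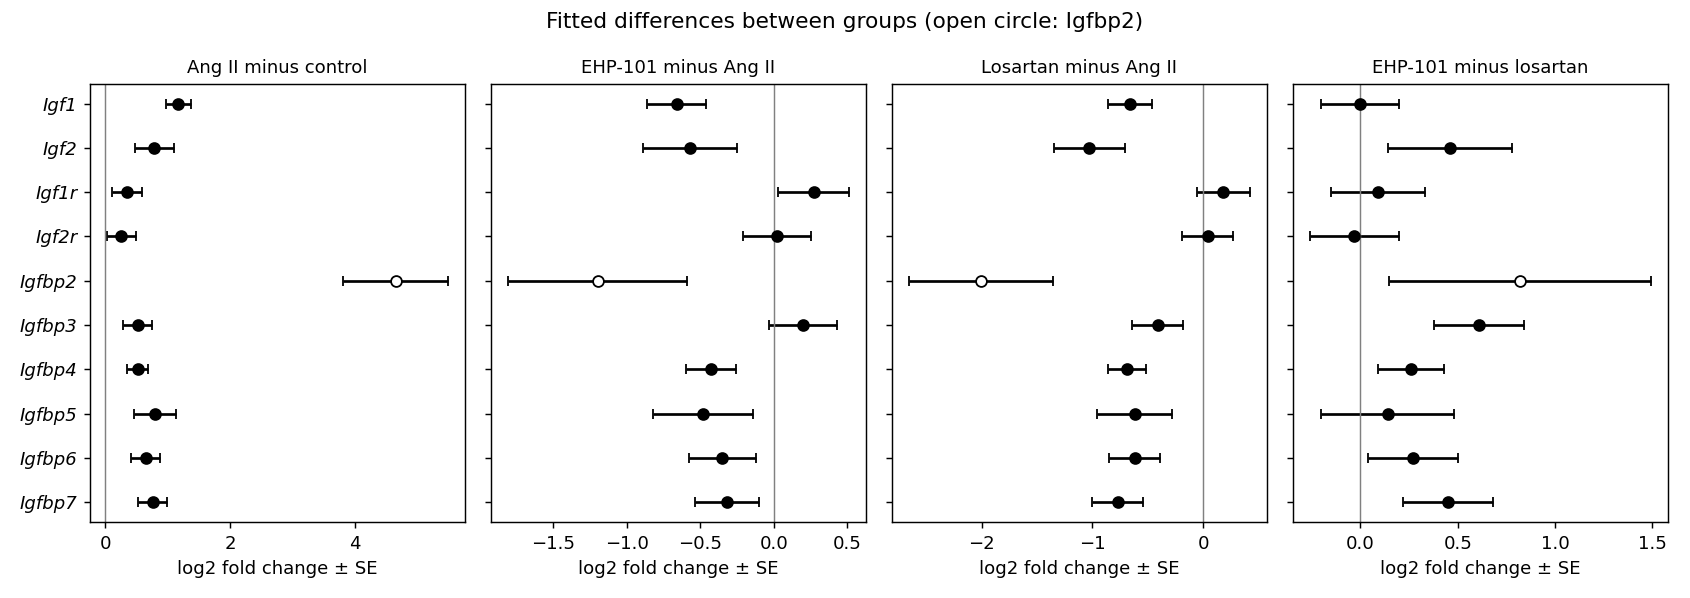
Fitted log2 fold change ± SE of the 10 genes in 4 comparisons, each panel with its own axis and a vertical line at 0. The open circle is Igfbp2, which was noted for the first of these differences. Points of 8 genes lie left of the line for losartan minus Ang II, and those of Igf1r and Igf2r lie close to it.

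Counts over the family are set here beside those over all tested genes. Igfbp2 is left out of every count but that of EHP-101 against losartan, since the control and Ang II libraries are those it was noted in. For Ang II against control, 1 of the other 9 passed, Igf1, where 0.541% of all genes passed. Of the 9, 7 had an unadjusted p under 0.05 where 17.6% of all genes did, and 6 lay above control without overlap where 12.3% of all genes did. Nothing is read from these counts, because the family was chosen with the results of this comparison known, and the p-values given for the 9 are values of the fit over all genes and no independent support. All 9 had a positive log2 fold change, with a median of 0.65, and the median over all genes was near 0 in this and every other comparison. Without control replicate 2 the value of Igf2r was negative.

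For losartan against Ang II, 0 of the 9 passed in edgeR, as did 0% of all genes, and 5 had an unadjusted p under 0.05 where 8.41% of all genes did. DESeq2 called 1 of them, Igfbp4, where it called 0.734% of all genes. Igf1, Igf2, Igfbp4, Igfbp5, Igfbp6 and Igfbp7 lay below Ang II without overlap, 6 of 9 where 10.5% of all genes did. The median log2 fold change was -0.62. For EHP-101 against Ang II, 0 of the 9 passed, as did 0% of all genes, 2 had an unadjusted p under 0.05 where 7.22% of all genes did, and DESeq2 called 0. Igf1, Igfbp4 and Igfbp5 lay below Ang II without overlap, 3 of 9 where 9.74% of all genes did, and the median was -0.35. These comparisons share the Ang II libraries with each other and with the comparison that drew attention to Igfbp2.

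For EHP-101 against losartan, 0 of the 10 passed, as did 0% of all genes. Igfbp3 alone had an unadjusted p under 0.05, where 6.04% of all genes did, and alone was higher without overlap, where 6.57% of all genes were. DESeq2 called 0 members. For EHP-101 against control, 0 of the 9 passed where 0.398% of all genes did, and 3 had an unadjusted p under 0.05 where 16.9% of all genes did. Igf1, Igf1r and Igfbp3 lay above control without overlap, 3 of 9 where 10.7% of all genes did, and the median log2 fold change was 0.32. For losartan against control, 0 of the 9 passed, as did 0% of all genes, and 2 had an unadjusted p under 0.05 where 10.7% of all genes did. Igf1 lay above control without overlap, 1 of 9 where 8.27% of all genes did, and the median was 0.12. DESeq2 called 0 of the 9 in either comparison with control. These counts against control share its libraries with the comparison that Igfbp2 was noted in.

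Other genes of the pathway were taken from 6 lists of 54 genes, 48 of them tested. In edgeR 0 of the 48 passed in any of the 6 comparisons. At an unadjusted p under 0.05 there were 7 of the 48 (14.6%) for Ang II against control, below the 17.6% of all genes. The same count was 5 (10.4%) for EHP-101 and 5 (10.4%) for losartan against Ang II, where 7.22% and 8.41% of all genes reached that level. It was 3 (6.25%) for EHP-101 against losartan, 13 (27.1%) for EHP-101 against control and 7 (14.6%) for losartan against control, beside 6.04%, 16.9% and 10.7% of all genes. DESeq2 called 1 of the 48 for Ang II against control (Adam12), where it called 3.36% of all genes with an adjusted p. For EHP-101 against control it called 3 (Htra1, Pappa and Stc1), where it called 3.34% of all genes, and 0 in the other 4 comparisons. The median log2 fold change of the 48 was -0.08 for Ang II against control, 0.09 for EHP-101 against Ang II and 0.08 for losartan against Ang II.

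Proteases that cut binding proteins, and their inhibitors, formed a list of 7 genes, 6 of them tested. Adam12, a protease of Igfbp3 and Igfbp5, had 1.37 ± 0.23 CPM in control, 3.4 ± 1.54 under Ang II and 1.67 ± 0.49 with EHP-101. The difference was 1.31 ± 0.35 on the log2 scale for Ang II against control (adjusted p = 0.128, edgeR) and -1.03 ± 0.35 for EHP-101 against Ang II (adjusted p = 0.489). Stc1, which inhibits the pappalysins, had 6.39, 12.4 and 6.96 CPM with EHP-101, above all 9 other libraries, and was 1.99-fold its Ang II level (adjusted p = 0.409). Pappa, a pappalysin that cuts Igfbp4, had 1.08 ± 0.64 CPM in control and 2.33 ± 0.76 under Ang II (1.09 ± 0.38, adjusted p = 0.212). Its level was 2.76 ± 0.54 CPM with EHP-101 and 1.96 ± 0.16 with losartan. Against control these were 1.33 ± 0.38 and 0.84 ± 0.39 on the log2 scale (adjusted p = 0.147 and 0.456, edgeR).

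Of 23 adaptors and members of the PI3K, AKT and mTOR route, 3 (13%) had an unadjusted p under 0.05 for Ang II against control, below the 17.6% of all genes, with a list median of -0.06. Against control the count was 7 (30.4%) with EHP-101 and 5 (21.7%) with losartan, above the 16.9% and 10.7% of all genes. Against Ang II it was 1 (4.35%) with EHP-101 and 0 with losartan, beside 7.22% and 8.41% of all genes. Between EHP-101 and losartan it was 0, beside 6.04%. Akt2, the kinase of insulin responses in muscle, had 148 ± 21.96 CPM in control, 107 ± 12.6 under Ang II, 107 ± 16.7 with EHP-101 and 108 ± 5.78 with losartan (Ang II against control -0.46 ± 0.15, adjusted p = 0.185). Pik3r1, the regulatory subunit of PI3K, had 171, 350.1 and 130.2 CPM with EHP-101 against 114, 129 and 112 under Ang II, and EHP-101 replicate 2 set most of that difference (0.87 ± 0.33, adjusted p = 0.568). The insulin receptor Insr had a log2 fold change of 0.09 ± 0.19 under Ang II and the growth hormone receptor Ghr one of -0.13 ± 0.12 (adjusted p = 0.827 and 0.568). Of 7 FoxO factors and atrophy genes, Foxo3 had 0.45 ± 0.20 in each treated group against Ang II (adjusted p = 0.672 and 0.577). Igfbp1, the neighbour of Igfbp3 and a product of liver, had 2 reads in the 12 libraries together, too few to be tested.

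Summed markers of some cell types differed without overlap between control and Ang II, and those of others overlapped. Cardiomyocyte markers summed to 66990 to 81780 CPM in control and 55480 to 66620 under Ang II, with no overlap, then 64910 to 75840 with EHP-101 and 64110 to 70690 with losartan. The mean of Myh6 went the other way, from 17880 CPM in control to 18580 under Ang II, and those of the rest were lower. The 8 markers of pericytes and smooth muscle summed to 1078 to 1722 CPM in control and 1732 to 1989 under Ang II, again with no overlap, then 1664 to 1971 with EHP-101 and 1668 to 1985 with losartan. Within this list the means of Kcnj8 and Abcc9 were lower under Ang II than in control (45.0 against 54.8 and 339 against 389 CPM). Those of the rest were higher. The summed CPM of 8 fibroblast markers was 2227 to 3813 in control, 3649 to 4520 under Ang II, 3499 to 3733 with EHP-101 and 2656 to 3270 with losartan, and none of the 8 was at 0 reads. Most of that sum was Gsn, with means of 1773 CPM in control and 1819 under Ang II, and Dcn, with 830 and 1180. The means of all 8 were higher under Ang II than in control, by little for Gsn and by more for Col1a1 (113 and 395 CPM). In edgeR 0 of the 8 markers of each of these 3 types passed for Ang II against control, while DESeq2 called Tagln of the smooth muscle list and Col1a1, Lum and Mfap5 of the fibroblast list. The 8 atrial markers summed to 298 to 1882 CPM in control, 1591 to 2861 under Ang II, 547 to 1164 with EHP-101 and 81.7 to 2121 with losartan. The 8 epicardial and mesothelial markers ran from 8.61 to 40.3, 31.4 to 40.6, 8.0 to 36.5 and 8.32 to 56.7 CPM in the same order of groups. The 8 macrophage markers ran from 282 to 335, 298 to 376, 144 to 276 and 225 to 294 CPM. Endothelial markers, 8 genes, ran from 1630 to 1829, 1680 to 1808, 1428 to 1899 and 1853 to 1937 CPM. Adipocyte markers, also 8, ran from 501 to 778, 530 to 672, 499 to 683 and 537 to 918 CPM. Most of that sum was Fabp4, which is in the endothelial list too. The 7 adipocyte markers tested had a median log2 fold change of 1.38 for Ang II against control. In whole tissue, fewer cells of a type and less RNA per cell cannot be told apart, and the part of these cell types in the levels of the IGF genes was not tested.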

How the data were processed

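The authors deposited whole-number read counts for each gene and each of 12 heart libraries, not normalized. Per the labels' protocols, poly(A) RNA was made into libraries with a kit that keeps no strand and read as single ends. Per the submitters' processing notes, fastp 0.20.0, HISAT2 2.1.0, featureCounts 2.0.0 and edgeR 3.30.0 were used with GRCm38. Counting settings were not given in the sources used here. Symbols and positions came from GENCODE M21, which held 47224 of the 47729 genes, and promoter sequences from RefSeq.

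Groups came from sample titles. Counts were fitted in R 4.3.3 with edgeR 4.0.16 (filterByExpr, TMM, 1 mean per group over all 12 libraries, robust quasi-likelihood, two-sided F test), and checked on simulated data. The SE is the absolute log2 fold change divided by the square root of F. With 3 libraries a side, exact permutation p-values have a floor of 0.1 and were not used. Log2 CPM had a prior count of 2. Alternatives were RLE factors, library size alone, no filter, DESeq2 1.42.0, a replicate block, and each library left out.

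The members, gene lists and markers were chosen with earlier results of these data known. All 10 members are named. Of each pathway list, genes past the threshold or up to 3 with the smallest p in a comparison could be named, and the 5 genes most like Igfbp2 and Igf1. Igfbp1 was added for its role, and the H19 values by library for their likeness to those of Igf2.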

Additional observations from a re-analysis of the deposited data

How the results depend on the processing

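Of 935 alternative log2 fold changes of members with a reported test, 891 kept their direction and side of the threshold, 37 turned sign and 5 no longer passed. All 5 were Igf1 for Ang II against control with 1 library left out. That was the only reported test to pass, so for the rest keeping the side means not passing again. In DESeq2, 2 of the 935 passed that had not, Igfbp7 for Ang II against control (0.75) and Igfbp4 for losartan against Ang II (-0.68). The other 85 are values of Igfbp2, given with no test, of which 82 moved by no more than the SE of the reported value. Counts of passing members were also taken over all 10, Igfbp2 included. The control and Ang II libraries singled Igfbp2 out, so counts that use these libraries are no test of it, and none is read from them. For Ang II against control the count was 3 in DESeq2, which called 3.36% of all genes with an adjusted p. In edgeR it was 2, where 0.541% of all genes passed. It was 1 without a filter and 1 with the replicate block, Igf1 in both, and 0 to 2 without single libraries. In DESeq2 the count was 1 for EHP-101 against control and 1 for losartan against Ang II, where edgeR called 0. DESeq2 called 3.34% and 0.734% of all genes with an adjusted p in these comparisons. The first call was Igfbp2 itself and is no support for it. Same-numbered libraries were not shown to be paired. Their deviations from the group means had correlations of -0.33 to 0.33, beside -0.37 to 0.31 for different-numbered libraries, with a median of 0.01 in each. Of 12 libraries, 6 correlated best with their own number.

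Counts over all genes moved more. For Ang II against control 83 passed, with 513 in DESeq2, 167 without a filter and 8 to 151 without single libraries. For EHP-101 against control 61 passed, with 492 in DESeq2, 158 without a filter, 22 by library size alone, 36 with the replicate block and 5 to 62 without single libraries. Where 0 passed, DESeq2 gave 61 for EHP-101 against Ang II, 108 for losartan against Ang II, 25 for EHP-101 against losartan and 22 for losartan against control. No filter gave 10, 30, 3 and 0 in that order, and single libraries left out gave up to 3 for losartan against Ang II and up to 2 for EHP-101 against losartan. The cause was not tested.

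Signs turned only among differences that did not pass. By library size alone, which moved the median of all genes by 0.17 for Ang II against control, -0.15 for EHP-101 and -0.12 for losartan against Ang II, Igf2r was -0.13 and -0.07 in the last 2 and Igfbp7 was 0.08 for losartan against control. That value of Igfbp7 was 0.01 with the replicate block. Without single libraries, Igf2r ran from -0.01 to 0.45 for Ang II against control, -0.13 to 0.09 for EHP-101 and -0.03 to 0.15 for losartan against Ang II. For EHP-101 against losartan, Igf1 ran from -0.10 to 0.05, Igf1r from -0.02 to 0.16, Igf2r from -0.17 to 0.05 and Igfbp5 from -0.06 to 0.35. For EHP-101 against control, Igf2 ran from -0.06 to 0.52, Igfbp4 from -0.03 to 0.21 and Igfbp5 from -0.02 to 0.59. For losartan against control, Igfbp3 ran from -0.09 to 0.46, Igfbp5 from -0.15 to 0.46, Igfbp6 from -0.19 to 0.25 and Igfbp7 from -0.15 to 0.27. Depth limits Igfbp2 most, with 444 reads over all 12 libraries.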
